A study of Monodelphis domestica with 6 samples.

Results

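DNA repair and damage checkpoint genes were followed from skin fibroblasts into induced pluripotent stem cells of a laboratory marsupial, the opossum *Monodelphis domestica*. The set is a list of 38 gene symbols, chosen by name and by repair pathway with earlier results of these data known. Of the symbols, 37 were among the 35665 genes of the deposited expression tables. Of these, 36 were found by their symbol, and TOPBP1, listed there as LOC100030030, was found by its gene number. XRCC1 was not analysed here. RNA sequencing (RNASeq) had been performed on cells of FD2M1 and LSD1, a pair of fully inbred strains that the labels give as wild type. The untreated parental cells were primary neonatal skin fibroblasts (neoSF) from the skin of female pups, with 1 library per strain, grown in serum medium. The reprogrammed cells (monoiPSC) were made from neoSFs by nucleofection of OriP/EBNA episomal plasmids encoding human OCT4, SOX2, NANOG, KLF4, LIN28 and cMYC, and were grown without feeder cells in medium with LIF, bFGF and the ROCK inhibitor Y27632. The monoiPSCs of each strain, called a line here, were sequenced at passage 15 and at passage 25, which gives 4 monoiPSC libraries. The study speaks of 2 lines and also of 4 clones. Whether both passages of a strain come from 1 clone is open. The study's methods list further plasmids in the mixture, and plasmid transcripts were not analysed here.

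Cells meet DNA damage with several repair systems that share checkpoint kinases. Homologous recombination copies an intact sister sequence into a resected double-strand break, end joining ligates the ends directly, the Fanconi anaemia pathway unhooks strands that are crosslinked to each other, mismatch repair removes replication errors, and PARP1 marks single-strand breaks. Recombination and crosslink repair are used mainly in S and G2 phase, and pluripotent cells are known for fast division, a short G1 phase and active recombination.

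The 2 neoSF libraries were shallower, with total counts of 14278794 and 16982978 against 28684754 to 35564261 in the monoiPSCs. They were also read in-house with short single-end reads, whereas the monoiPSC libraries were read as longer paired-end reads by a sequencing service. Platform and cell type therefore cannot be told apart in any difference between these groups. Levels are given as normalized read counts (NRC), the deposited values taken out of the log2 scale, in the order FD2M1 and LSD1 for neoSFs and FD2M1 passage 15, LSD1 passage 15, FD2M1 passage 25 and LSD1 passage 25 for monoiPSCs. NRC is not divided by gene length, so it compares libraries and not genes. Differences are log2 fold changes of monoiPSC over neoSF with their standard error (SE). The adjusted p (edgeR's quasi-likelihood test on the counts, Benjamini-Hochberg adjustment) runs over the 13072 genes that reached an NRC of 20 in every library of at least 1 cell type. A gene was called when its adjusted p was 0.05 or less and it differed 2-fold or more. Since both passages share the strain, and each strain gave 1 neoSF library, these p-values measure the spread between libraries and not between animals. In these bulk libraries, fewer cells of a type and less RNA per cell cannot be told apart. The labels were checked against markers. All 11 tested fibroblast markers were called lower and all 9 tested pluripotency markers were called higher in monoiPSCs.

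Repair and checkpoint transcripts were higher in monoiPSCs for a majority of the 37 genes, and none was called lower. Of the 37, 21 were called higher (56.8%), against 24.3% of all genes tested called higher and 21.6% called lower. The median log2 fold change of the 37 was 1.17, against 0.08 over all genes tested. The genes called with at least a 4-fold rise were BRCA1, RAD51C, RAD54L, RAD54B, BLM, FANCL, FANCI, EXO1, CHEK1, CHEK2 and POLQ, which is 11 of 37 (29.7%) where 13.8% of all genes tested were called at that size. Another 10 were called with a rise of 2 to 4-fold. The remaining 16 were not called: XRCC3, RAD50, NBN, ATR and TOPBP1 passed the adjusted p at less than 2-fold, and BRCA2, PALB2, XRCC2, FANCA, FANCB, FANCE, FANCF, PMS2, ATM, LIG4 and PRKDC did not pass it. On the adjusted p alone, 26 of 37 were higher, where 32.8% of all genes tested were. FANCL and RAD51C were below an NRC of 20 in at least 1 neoSF library and entered the test through the monoiPSCs, where they are high. Of the other 35, 19 were called higher (54.3%), with a median of 1.16. FANCL and RAD51C are also among the 11 genes with at least a 4-fold rise and the 26 on the adjusted p alone. Those counts were not repeated without them.

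All 4 monoiPSC libraries lay above both neoSF libraries for 27 of 37 genes, and all 4 lay below for ATM, LIG4 and PRKDC. Over all genes tested those shares were 36.1% and 37.1%. An exact two-sided permutation test over the 15 ways to split 4 and 2 libraries cannot give a p below 0.0667, and 26 of the 37 genes, all higher in monoiPSCs, reached that value. Of all genes tested, 33.1% were higher at that p. FANCL and RAD51C, which entered the test through the monoiPSCs, are among the 27 and the 26. Counts within the small pathway groups below are descriptions, and groups were not tested. Over all genes tested, 24.3% were called higher and 36.1% were higher without overlap.

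**Figure D1:**
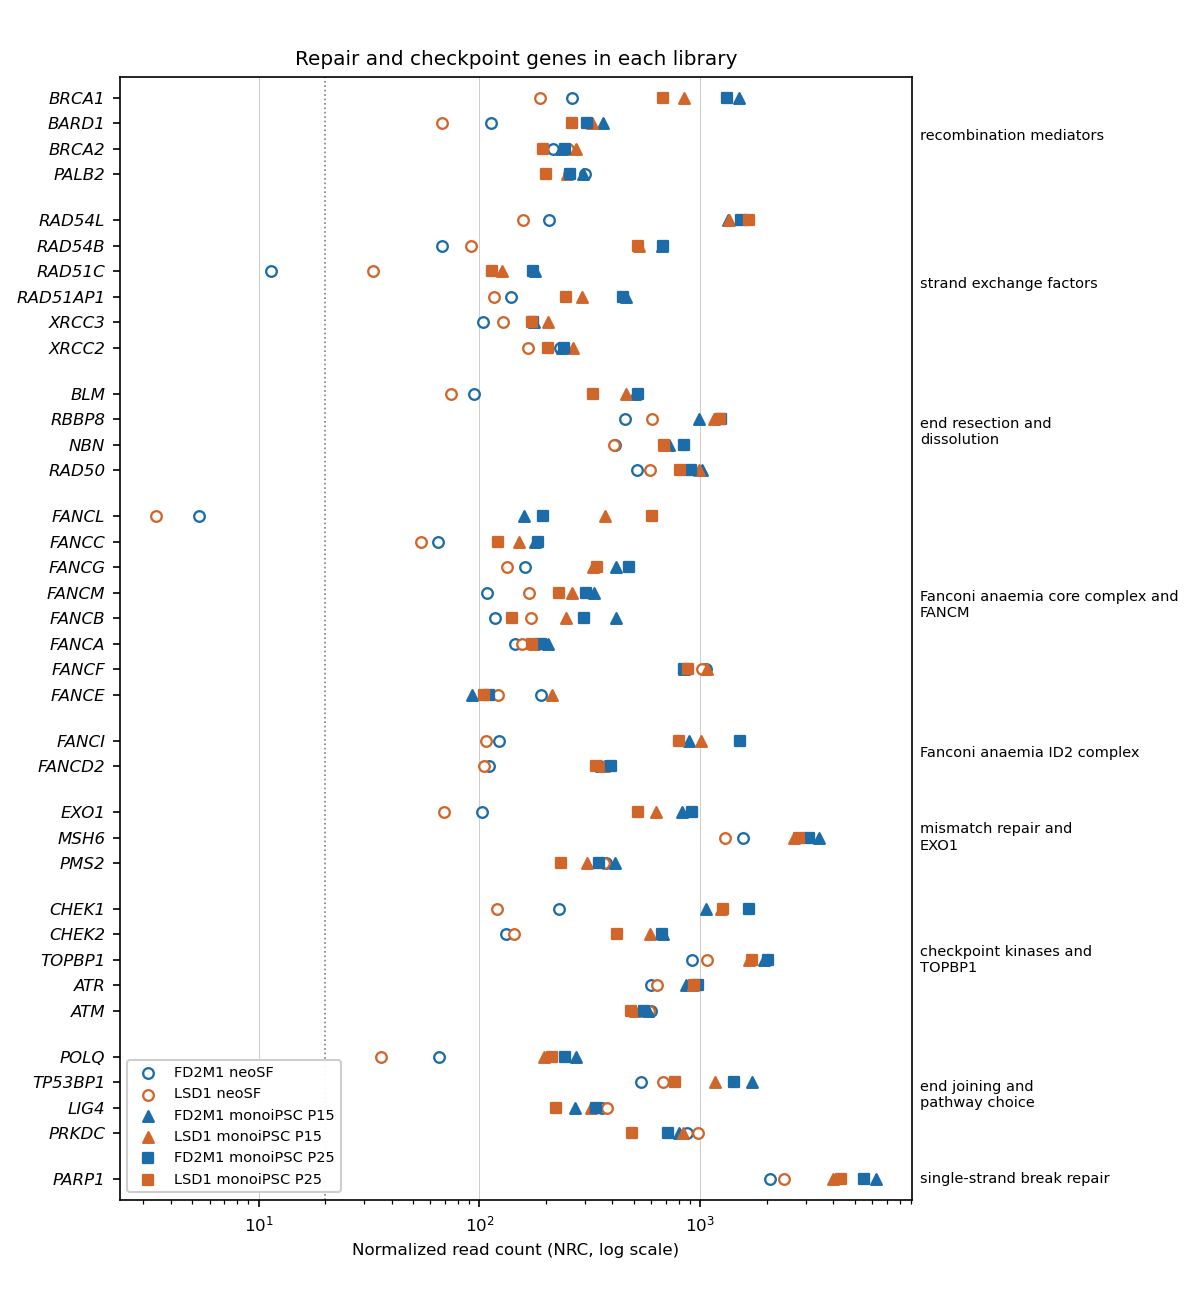
NRC on a log axis (horizontal) of each repair and checkpoint gene (vertical, grouped by role), with 1 marker per library: open circles for neoSF, triangles for monoiPSC at passage 15, squares for monoiPSC at passage 25, blue for FD2M1 and orange for LSD1. The dotted line marks an NRC of 20. The filled markers lie right of both open circles for 27 of 37 genes, and FANCL is the gene whose neoSF values lie below 6.

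**Figure D2:**
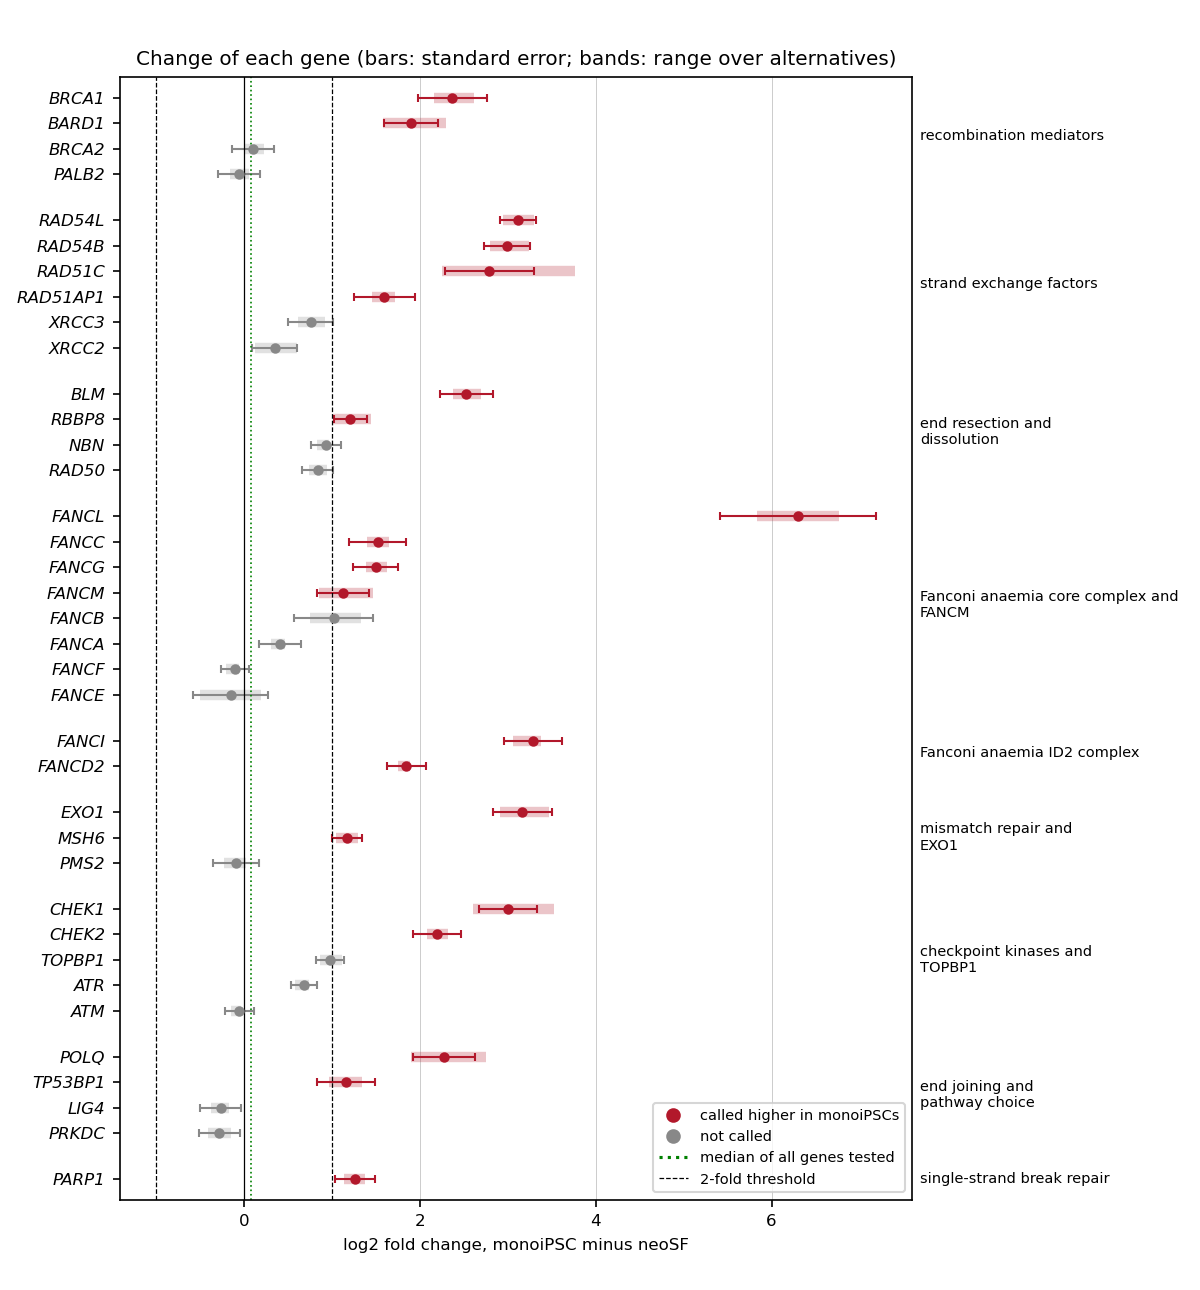
Log2 fold change of monoiPSC over neoSF for each gene (horizontal), with bars for the SE and shaded bands for the range over the alternative processing settings. Red points are the 21 genes called higher, gray points the 16 not called, dashed lines mark a 2-fold change and the dotted green line the median of all genes tested (0.08). The mediator, core complex, mismatch repair, checkpoint and end joining groups each span from near 0 to over 2 on this scale.

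Among the recombination mediators, which prepare a resected end for strand exchange, the partners BRCA1 and BARD1 rose and the partners BRCA2 and PALB2 were not called. BRCA1 (gene 554178, chromosome 2) had an NRC of 262 and 189 in neoSFs and 1499.6, 839, 1322 and 680.3 in monoiPSCs. Each monoiPSC library was above both neoSF libraries, and within the monoiPSCs both FD2M1 values were above both LSD1 values (log2 fold change 2.37, SE 0.39, adjusted p = 0.00154). BARD1 (gene 100014337, chromosome 7), which forms the ubiquitin ligase with BRCA1, was at 113 and 67.8 in neoSFs and 363, 324, 308 and 263 in monoiPSCs, again without overlap (log2 fold change 1.90, SE 0.31, adjusted p = 0.00142). BRCA2 (gene 100049015, chromosome 4), which acts on the single-stranded end, was at 216 and 252 in neoSFs and 233, 274, 243 and 194 in monoiPSCs, and the groups overlapped (log2 fold change 0.11, SE 0.24, adjusted p = 0.719). PALB2 (gene 100027303, chromosome 6), the bridge between BRCA1 and BRCA2, overlapped as well, at 299 and 255 in neoSFs and 293, 248, 257 and 199.9 in monoiPSCs (log2 fold change -0.05, SE 0.24, adjusted p = 0.857).

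Of the 6 strand exchange factors, 4 rose and 2 were not called. RAD54L (gene 100024068, chromosome 2) and RAD54B (gene 100029785, chromosome 3) are motor proteins that help the broken strand invade the intact duplex. The NRC of RAD54L was 206 and 158 in neoSFs and 1339, 1345, 1529 and 1664 in monoiPSCs, far apart and with little spread inside either group (log2 fold change 3.11, SE 0.20, adjusted p = 3.21e-05). RAD54B was at 67.6 and 91.8 in neoSFs and 673, 528, 677 and 523 in monoiPSCs (log2 fold change 2.99, SE 0.26, adjusted p = 9.82e-05). These are fitted folds of 8.66 and 7.97, and the groups did not overlap. RAD51C (gene 100011576, chromosome 2) rested on 6 and 21 counts in neoSFs, which is an NRC of 11.4 and 32.9, and had 179, 126, 176 and 114 in monoiPSCs (log2 fold change 2.79, SE 0.51, adjusted p = 0.00236). Its log2 fold change ran from 2.25 to 3.76 when 1 library at a time was left out. RAD51AP1 (gene 100019490, chromosome 8), which stimulates strand pairing, was at 139 and 117 in neoSFs and 459, 291, 446 and 246 in monoiPSCs and was called (log2 fold change 1.59, SE 0.35, adjusted p = 0.00548). RAD51C, XRCC2 and XRCC3 are related to each other in sequence. XRCC3 (gene 100020866, chromosome 1) was at 103 and 127 in neoSFs and 177, 204, 175 and 174 in monoiPSCs, higher in each monoiPSC library but by less than 2-fold (log2 fold change 0.76, SE 0.26, adjusted p = 0.034). XRCC2 (gene 100019285, chromosome 8) was at 232 and 166 in neoSFs and 236, 264, 242 and 205 in monoiPSCs and overlapped (log2 fold change 0.35, SE 0.25, adjusted p = 0.258).

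End resection trims a break to single-stranded DNA, and dissolution separates the joined molecules once copying is done. All 4 of these genes lay higher in every monoiPSC library than in either neoSF library, with 2 of them called. Of all genes tested, 36.1% lay higher in this way and 24.3% were called higher. BLM (gene 100014352, chromosome 1), a helicase that acts at both steps, was at 94.3 and 74.7 in neoSFs and 505, 461, 521 and 327 in monoiPSCs (log2 fold change 2.53, SE 0.30, adjusted p = 0.000335). The resection factor RBBP8, also called CtIP, (gene 100010941, chromosome 3) was at 454 and 607 in neoSFs and 989, 1149, 1237 and 1226 in monoiPSCs (log2 fold change 1.21, SE 0.19, adjusted p = 0.00126). RAD50 and NBN, subunits of the complex that first binds a broken end, passed the adjusted p at less than 2-fold. RAD50 (gene 100015557, chromosome 1) was at 518 and 593 in neoSFs and 1018, 991, 905 and 805 in monoiPSCs (log2 fold change 0.84, SE 0.17, adjusted p = 0.00436). NBN (gene 100021870, chromosome 3) was at 410.5 and 409 in neoSFs and 723, 685, 839.6 and 684 in monoiPSCs (log2 fold change 0.94, SE 0.17, adjusted p = 0.00239). In both genes the groups stayed apart.

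The Fanconi anaemia core complex is a ubiquitin ligase assembled at a crosslink, and FANCM is the translocase that anchors it to DNA. In this group 4 of 8 genes rose and 4 were not called, and the group held both the largest log2 fold change of the 37 genes and several values near 0. FANCL (gene 100033325, chromosome 1) is the catalytic subunit of the ligase. Its NRC was 5.36 and 3.43 in neoSFs and 159, 370.0, 193 and 606 in monoiPSCs. The neoSF values rest on 3 and 2 counts, and inside the monoiPSCs both LSD1 values were above both FD2M1 values. The ratio of library-scaled counts, pooled over libraries, was 83.7 with a 95% exact interval from 35.8 to 257.9, which covers counting error only. The fitted value (log2 fold change 6.30, SE 0.88, adjusted p = 0.000739) depends on the prior count that edgeR adds. FANCC (gene 100013900, chromosome 6) was at 65.0 and 54.4 in neoSFs and 178, 151, 183 and 121 in monoiPSCs (log2 fold change 1.52, SE 0.32, adjusted p = 0.00476), and FANCG (gene 100028459, chromosome 6) was at 160.2 and 134 in neoSFs and 417, 328, 473 and 340.4 in monoiPSCs (log2 fold change 1.50, SE 0.26, adjusted p = 0.00183). Both are structural subunits, and neither overlapped between groups. FANCM (gene 100025437, chromosome 1) was at 109 and 167 in neoSFs and 331, 263, 303 and 230.0 in monoiPSCs (log2 fold change 1.12, SE 0.29, adjusted p = 0.0121), and without the FD2M1 neoSF library it was no longer called (log2 fold change 0.85, adjusted p = 0.0710 from the same test).

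The other 4 core subunits were not called. FANCA (gene 100027499, chromosome 1) was at 145 and 156 in neoSFs and 204, 177, 191 and 172 in monoiPSCs, slightly higher in every monoiPSC library (log2 fold change 0.41, SE 0.24, adjusted p = 0.17). FANCF (gene 103095165, chromosome 5), an adaptor of the complex, was at 1063 and 1019.7 in neoSFs and 841, 1073, 844 and 884 in monoiPSCs and overlapped (log2 fold change -0.10, SE 0.16, adjusted p = 0.615). FANCE (gene 100028417, chromosome 2), which contacts FANCD2, was at 189 and 122 in neoSFs and 92.7, 214, 111 and 105 in monoiPSCs, where the LSD1 passage 15 value stood apart from the other monoiPSC values (log2 fold change -0.15, SE 0.42, adjusted p = 0.767). FANCB (gene 100031860, chromosome 7), a partner of FANCL in the catalytic module, was at 118 and 171 in neoSFs and 413, 248, 296 and 140.2 in monoiPSCs. Its values overlapped through LSD1 at passage 25 (log2 fold change 1.02, SE 0.45, adjusted p = 0.0838), and without that library it was called, with a log2 fold change of 1.22 and an adjusted p of 0.0193 from the same test.

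The ID2 complex, the clamp of FANCD2 and FANCI that the core complex ubiquitinates, rose in both of its genes. FANCD2 (gene 100024226, chromosome 6) was at 110.5 and 105 in neoSFs and 355, 367, 395 and 336 in monoiPSCs (log2 fold change 1.85, SE 0.22, adjusted p = 0.000366), and FANCI (gene 100016421, chromosome 1) was at 123 and 107 in neoSFs and 885, 1009, 1508 and 799 in monoiPSCs (log2 fold change 3.28, SE 0.33, adjusted p = 0.000168). The log2 NRC difference of FANCI minus FANCD2 within a library went from 0.09 to 1.49, a shift of 1.40, with no overlap between groups. This pair was picked after the values had been seen and carries no test.

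In mismatch repair, EXO1 (gene 100020408, chromosome 2), the exonuclease that removes the faulty strand and also takes part in long-range resection, was at 103 and 69.2 in neoSFs and 824, 632, 913 and 524 in monoiPSCs (log2 fold change 3.16, SE 0.34, adjusted p = 0.000214). MSH6 (gene 100033356, chromosome 1), a subunit of the mismatch sensor, was at 1559 and 1294 in neoSFs and 3429, 2667, 3094 and 2805 in monoiPSCs (log2 fold change 1.17, SE 0.17, adjusted p = 0.000879). Both were higher without overlap. PMS2 (gene 100027220, chromosome 6), the nuclease subunit that acts after recognition, was at 376 and 365 in neoSFs and 410.2, 308, 347 and 234 in monoiPSCs, overlapped and was not called (log2 fold change -0.09, SE 0.26, adjusted p = 0.773).

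Among the checkpoint genes the effector kinases rose and the apical kinases that activate them were not called. CHEK1 (gene 100016170, chromosome 4), the effector downstream of ATR, was at 229.9 and 120.2 in neoSFs and 1056, 1236, 1669 and 1267 in monoiPSCs (log2 fold change 3.00, SE 0.33, adjusted p = 0.000253). CHEK2 (gene 100030584, chromosome 3), the effector downstream of ATM, was at 132 and 143 in neoSFs and 679, 593, 670.3 and 420.1 in monoiPSCs (log2 fold change 2.20, SE 0.27, adjusted p = 0.000433). Neither gene overlapped between the groups. ATR (gene 100019691, chromosome 7), the kinase that senses single-stranded DNA, was at 597 and 637 in neoSFs and 859, 930.3, 979 and 933 in monoiPSCs, separated but less than 2-fold apart (log2 fold change 0.68, SE 0.15, adjusted p = 0.00518). ATM (gene 100026797, chromosome 4), which responds to double-strand breaks, was at 595 and 583 in neoSFs and 579, 505, 555 and 486 in monoiPSCs (log2 fold change -0.05, SE 0.16, adjusted p = 0.789). All 4 monoiPSC values of ATM were below both neoSF values, by little. TOPBP1 (gene 100030030, chromosome 8), the activator of ATR, was at 915 and 1075 in neoSFs and 1948, 1665, 2029 and 1715 in monoiPSCs, just under the 2-fold threshold (log2 fold change 0.98, SE 0.16, adjusted p = 0.0015). It passed that threshold without the LSD1 neoSF library (1.11) or without LSD1 at passage 15 (1.03), on the log2 scale.

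Of the 4 end joining and pathway choice genes, 2 rose and 2 were not called. POLQ (gene 100017636, chromosome 4), the polymerase of the microhomology-mediated branch, was at 65.7 and 35.9 in neoSFs and 272, 196, 244 and 213 in monoiPSCs and rose without overlap (log2 fold change 2.27, SE 0.35, adjusted p = 0.00117). Among the listed genes, the classical branch is represented by LIG4, the ligase, and PRKDC, the DNA-dependent protein kinase. LIG4 (gene 100018117, chromosome 7) was at 359 and 377 in neoSFs and 272, 319, 336 and 222 in monoiPSCs (log2 fold change -0.26, SE 0.23, adjusted p = 0.357), and PRKDC (gene 100030684, chromosome 3) was at 866 and 978 in neoSFs and 797, 838, 716 and 488 in monoiPSCs (log2 fold change -0.28, SE 0.24, adjusted p = 0.329). In both genes all monoiPSC values lay below both neoSF values, yet neither passed the test. Of 13 other end joining genes tested, read further below, 3 were called higher, the Ku subunit XRCC5 among them, and 1 lower. TP53BP1 (gene 100011435, chromosome 1), which shields ends from resection and so opposes BRCA1, was at 538 and 677 in neoSFs and 1721, 1166, 1421 and 766 in monoiPSCs. It was called higher (log2 fold change 1.16, SE 0.33, adjusted p = 0.0173), with LSD1 at passage 25 close to the neoSF values. The call was lost without the FD2M1 neoSF library (log2 fold change 1.00, adjusted p = 0.0962 from the same test) and without FD2M1 at passage 15, where the log2 fold change was 0.97.

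PARP1 (gene 100019495, chromosome 2), the sensor of single-strand breaks, was at 2074 and 2393 in neoSFs and 6241, 4007, 5518 and 4339 in monoiPSCs. It was called higher with no overlap (log2 fold change 1.27, SE 0.23, adjusted p = 0.00227).

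Markers of cycling cells were higher in the same monoiPSC libraries as these repair genes. All 14 G2 and M phase markers tested, MKI67 and TOP2A among them, were called higher (median log2 fold change 3.65), with a summed NRC of 4157 to 5079 in neoSFs and 51017 to 72742 in monoiPSCs. Of the 14 S phase markers, 13 were called higher with a list median of 2.78. The other one, CCNE1 or cyclin E1, was called lower and holds a large part of the summed NRC, which was 30122 to 41470.0 in neoSFs and 32055 to 51745 in monoiPSCs. Whether the share of cycling cells has a part in the repair gene differences was not tested. Markers of cell types that could accompany the lines were also read. The summed NRC of the neuronal markers was 1057 to 1402 in neoSFs and 5097 to 11310.1 in monoiPSCs, with 6 of 6 called higher and ELAVL3 at 0 in both neoSF libraries. For melanocyte markers it was 235 to 388 in neoSFs and 4601 to 15552 in monoiPSCs, with 1 of 2 tested called higher. These 2 markers had log2 fold changes of 12.23 and -0.11, so the rise of this sum can rest on 1 gene. For skeletal muscle markers the sum was 369 to 1689 in neoSFs and 1395 to 10858 in monoiPSCs, with 1 of 4 called higher. Keratinocyte markers summed to 239 to 292 in neoSFs and 26 to 71.3 in monoiPSCs, with both of the 2 tested called lower and KRT14 and TP63 at 0 in all monoiPSC libraries. Endothelial markers summed to 51.5 to 217 in neoSFs and 66.8 to 139.9 in monoiPSCs and immune markers to 28.9 to 41.8 in neoSFs and 25.2 to 30.9 in monoiPSCs, with CDH5 at 0 in both neoSF libraries and LYZ at 0 in all 6 libraries, and 0 of 1 tested was called in either list. At an unadjusted p under 0.05 the counts for those single markers were also 0. Their part in the repair gene differences was not tested.

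Partner genes were then set against each other inside each library, since a difference inside a library does not depend on how libraries are scaled. The position of such a difference depends on the lengths of both genes, so only its shift between the cell types is read. These pairs were picked after the values had been seen and carry no test. CHEK1 minus ATR went from -1.89 to 0.48, a shift of 2.37 on the log2 scale. CHEK2 minus ATM went from -2.10 to 0.13, a shift of 2.23. Both effector kinases gained on their activating kinase in every monoiPSC library. BRCA1 minus BRCA2 went from -0.07 to 2.14, a shift of 2.21, and BRCA1 minus TP53BP1 from -1.44 to -0.24, a shift of 1.20. POLQ minus LIG4 went from -2.92 to -0.31, a shift of 2.61, and PARP1 minus PRKDC from 1.28 to 2.83, a shift of 1.55. MSH6 minus PMS2 went from 1.94 to 3.23, a shift of 1.29. None of these differences overlapped between neoSFs and monoiPSCs. RAD51C minus XRCC3 (shift 2.25, with few neoSF counts for RAD51C), EXO1 minus MSH6 (1.99) and FANCG minus FANCA (1.09) did not overlap either and are not plotted. A lack of overlap is common with so few libraries. Of all single genes tested, 36.1% were higher and 37.1% lower in monoiPSCs without overlap, and the share over other pairs was not computed. Smaller shifts were found in 4 pairs, in which the groups overlapped. BRCA1 minus BARD1 went from 1.35 to 1.72, a shift of 0.38, and RAD54L minus RAD54B from 1.19 to 1.30, a shift of 0.10. BRCA2 minus PALB2 went from -0.24 to -0.08, a shift of 0.17, and RAD50 minus NBN from 0.44 to 0.34, a shift of -0.09.

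**Figure D3:**
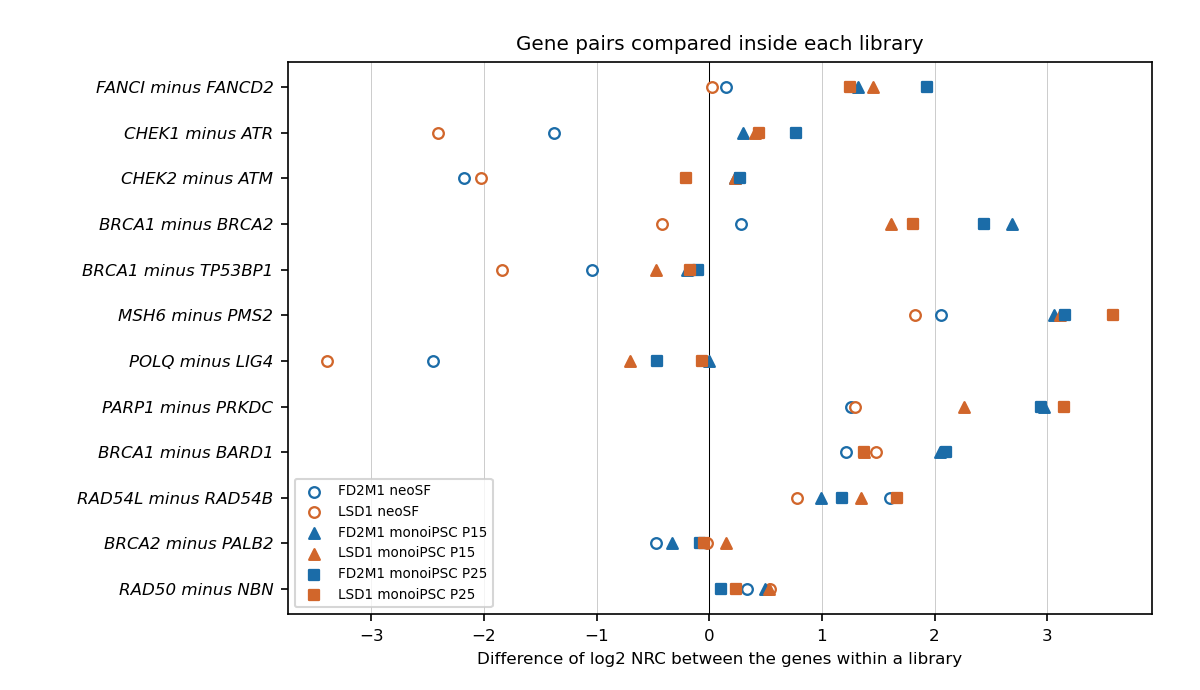
Difference of log2 NRC between the genes of each pair (vertical) within a library (horizontal), with markers as in the plot of NRC by library: open circles for neoSF, triangles and squares for monoiPSC at passage 15 and 25, blue for FD2M1 and orange for LSD1. In the upper 8 pairs, from FANCI minus FANCD2 to PARP1 minus PRKDC, the open circles lie left of all filled markers, and in the lower 4 the open and filled markers overlap.

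Groups of the listed genes, which are parts of their pathways, were compared in the same way. The mean log2 NRC of the 14 homologous recombination genes minus that of the 4 end joining genes was -0.99 and -0.90 in the neoSFs and -0.21, -0.18, -0.14 and 0.06 in the monoiPSCs, a shift of 0.83. For the 10 Fanconi anaemia genes minus the same 4 it was -1.55 and -1.56 in the neoSFs and -0.87, -0.57, -0.70 and -0.36 in the monoiPSCs, a shift of 0.93. Both differences were higher in all 4 monoiPSC libraries. They rest on few end joining genes, of which POLQ and TP53BP1 themselves rose, and on genes with few neoSF counts. With the genes under an NRC of 20 left out, a choice made after seeing the data, the shifts were smaller. Without FANCL the Fanconi anaemia shift was 0.43 over 9 genes, and without RAD51C the recombination shift was 0.72 over 13 genes. Other genes of these pathways, read further below, are not in these means. Their median log2 fold changes were 0.73 for recombination, 0.38 for Fanconi anaemia and crosslink repair, and 0.43 for end joining.

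No repair gene was called between the passages. If the passages of a strain came from different clones, passage and clone cannot be told apart here. With strain as a covariate, edgeR and DESeq2 called 0 of the 37 genes between passage 25 and passage 15, where edgeR called 0 and DESeq2 0.971% of all genes tested. FANCB (log2 fold change -0.66) and TP53BP1 (-0.46) were the 2 genes with an unadjusted p under 0.05, both lower at passage 25, where 9.35% of the 12252 genes tested were under it. The smallest adjusted p was 0.509 (edgeR's quasi-likelihood test). The log2 fold change of passage 25 over passage 15 was above 0 for 9 of 37 genes, with a median of -0.12, against 48.5% of all genes tested and their median of -0.01.

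Between the lines, edgeR called 0 of 37 genes, and 7 had an unadjusted p under 0.05, against 14.2% of all genes tested. DESeq2 called 1 of 37, FANCL, where it called 1.56% of all genes tested. FANCL had an NRC of 159 and 193 in the FD2M1 line and of 370.0 and 606 in the LSD1 line. That is a log2 fold change of 1.44 with an SE of 0.24, an adjusted p of 0.136 by edgeR and of 0.00246 by DESeq2. The other 6 genes with an unadjusted p under 0.05 were BRCA1, RAD51AP1, FANCB, EXO1, TP53BP1 and PARP1, all lower in LSD1. BRCA1 had the largest of these differences after FANCB, at -0.89 with an SE of 0.16 (adjusted p = 0.141 by edgeR). Over the 37 genes the median log2 fold change of LSD1 over FD2M1 was -0.23, against 0.01 over all genes tested, and 7 of 37 values were above 0. Both FD2M1 libraries lay above both LSD1 libraries for 21 of 37 genes, where 22.6% of all genes tested did so. The reverse order held for FANCF and FANCL, where 20.9% of all genes tested had it. The summed NRC of the G2 and M phase markers was 66173 and 72742 in the FD2M1 line and 51017 and 62731 in the LSD1 line. S phase markers summed to 51745 and 49948 in FD2M1 and 34377 and 32055 in LSD1. Marker sums were higher in LSD1 for skeletal muscle and melanocytes, with 2403 and 1395 in FD2M1 and 5167 and 10858 in LSD1 for skeletal muscle, and 5953 and 4601 in FD2M1 and 15552 and 8100.4 in LSD1 for melanocytes. The melanocyte sum can rest on 1 gene here too. The part of any of these sums in the line order was not tested. A line here stands for the monoiPSCs of 1 strain, so line and strain cannot be told apart.

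The change from neoSF to monoiPSC was also tested for a difference between the strains. For this interaction a gene was called at an adjusted p of 0.05 or less, without the 2-fold threshold. Neither edgeR nor DESeq2 called any of the 37 genes in this interaction, where edgeR called 0.0841% of all genes tested and DESeq2 2.34%. RAD51C and PARP1 had an unadjusted p under 0.05, against 9.13% of all genes tested, and the smallest adjusted p was 0.433. The interaction value, LSD1 minus FD2M1, was above 0 for 8 of 37 genes, with a median of -0.21, against 49.1% of all genes tested and their median of -0.01. With 1 neoSF library per strain, the spread in this test comes from the monoiPSC passages alone. In all 4 monoiPSC libraries, 28 of the 37 genes, FANCL and RAD51C among them, were above and 4 were below the neoSF library of their own strain. Over all genes tested those shares were 39.4% and 40.1%.

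The other genes of these pathways were read from wider lists of 161 further repair and damage genes, of which 144 had a row and 142 were tested. Of the 142, 46 were called higher and 10 lower, and their median log2 fold change was 0.44. The 142 include genes that reached the NRC minimum only in the monoiPSCs, where they are high, such as NEIL2. Counts of the wider lists were not repeated without such genes. The 46 are 32.4% of those tested, where 24.3% of all genes tested were called higher and 21.6% lower. Each list below is a description read against those shares, and lists were not tested against each other. Among other homologous recombination genes, 13 of 27 tested were called higher and 2 lower, with a median of 0.73. DNA2 (log2 fold change 4.11, SE 0.35), the nuclease of long-range resection, and MCM8 (3.42, SE 0.31), a helicase of recombination, rose most. FIGNL1 (-1.47, SE 0.40), an ATPase that acts in recombination, and SLX4 (-1.41, SE 0.25), the scaffold of structure-specific nucleases, were the 2 that fell. In mismatch repair 2 of 3 were called higher and 0 lower, with a median of 1.11. The 2 were PMS1 (1.32, SE 0.26), a relative of PMS2, and MSH3 (1.11, SE 0.28), which recognises larger loops than MSH6 does. The damage signalling and checkpoint list had 11 of 21 called higher, 1 lower and a median of 1.17. TIMELESS (3.74, SE 0.39), a fork protection factor, and CDC25A (3.58, SE 0.53), the phosphatase that CHEK1 restrains, rose most. TTI1 (-1.12, SE 0.26), a chaperone subunit for ATM and ATR, fell.

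Further Fanconi anaemia and crosslink repair genes had 2 of 12 called higher, 0 lower and a median of 0.38. The 2 were UBE2T (4.43, SE 0.29) and CENPX (1.13, SE 0.30). UBE2T, the ubiquitin-conjugating enzyme that works with FANCL, had an NRC of 55.6 and 50.7 in neoSFs and 875, 870.0, 1281 and 1217 in monoiPSCs. Base excision and single-strand break repair had 7 of 22 called higher (31.8%), 1 lower and a median of 0.74. LIG1 (2.96, SE 0.25), the replicative ligase, was among the 7, and PARP3 (-3.10, SE 0.74), a relative of PARP1, fell. NEIL2, a glycosylase for oxidised bases, rested on 4 counts in neoSFs, all in FD2M1, and its ratio was 42.6, with a 95% exact interval from 16.6 to 156.7. It entered the test through the monoiPSCs, and the count of 7 of 22 was not repeated without it. In end joining, 3 of 13 (23.1%) were called higher, close to the share of all genes tested, with MAD2L2 (2.10, SE 0.35), a shieldin subunit, and XRCC5 (1.41, SE 0.14), a Ku subunit, leading. APLF (-1.13, SE 0.37), an end joining scaffold, fell, and the median was 0.43. Translesion synthesis had 4 of 11 called higher, 0 lower and a median of 0.03, led by HLTF (2.15, SE 0.28) and the polymerase POLI (1.40, SE 0.33). Nucleotide excision repair and direct reversal had 1 of 20 called in each direction, CETN2 (1.47, SE 0.20) higher and UVSSA (-1.33, SE 0.15) lower, with a median of 0.05 that lay beside the 0.08 of all genes tested.

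Of 13 tested arrest and death genes of the damage response, 3 were called higher (23.1%) and 4 lower, with a median of -0.33, where 24.3% and 21.6% of all genes tested were called. Neither count is read as a result about the list. Higher were GADD45A and the death effectors BAX (1.96, SE 0.21) and BBC3 (1.90, SE 0.30). Lower were ZMAT3, the CDK inhibitor CDKN1A and, with the deepest falls, GADD45B (-2.86, SE 0.25) and the stress gene SESN2 (-1.51, SE 0.35). CDKN1A, the effector of the G1 arrest, had an NRC of 6418 and 10552 in neoSFs and 2899.5, 2925, 3511 and 2983 in monoiPSCs. CDKN1A, GADD45A and ZMAT3 were singled out after their values had been seen.

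**Figure D4:**
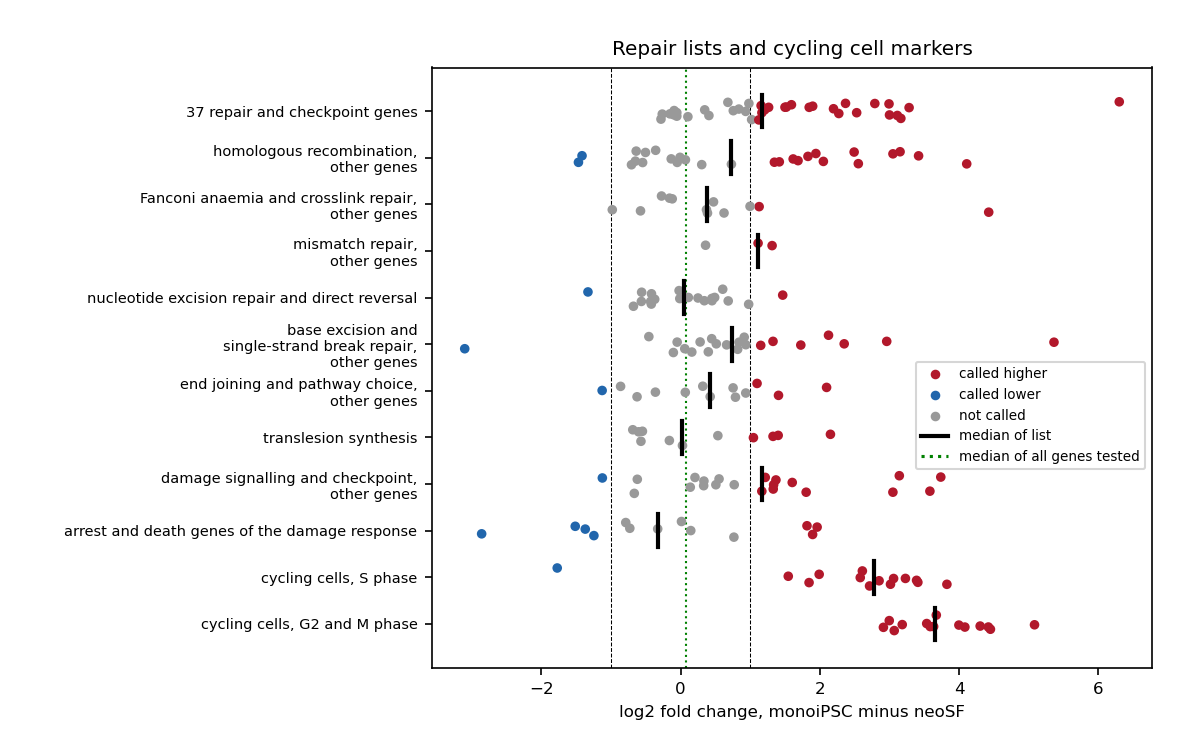
Log2 fold change of monoiPSC over neoSF (horizontal) for each tested gene of the 37 repair and checkpoint genes, of the wider repair lists and of the cycling cell markers (vertical). Red points were called higher, blue lower and gray neither, black bars are list medians, dashed lines mark a 2-fold change and the dotted green line the median of all genes tested. The medians run from -0.33 for the arrest and death genes and 0.05 for nucleotide excision repair to 1.17 for the 37 genes and 3.65 for the G2 and M phase markers.

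The deposited identifiers give the chromosome of MonDom5 for each gene, but no positions. The 37 genes lay on chromosomes 1 to 8, with 9 on chromosome 1, 6 on chromosome 2 and 1 on chromosome 5.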

How the data were processed

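RNA of 2 neoSF and 4 monoiPSC libraries had been sequenced. The labels name a TruSeq mRNA kit for all 6, and the study's methods for the neoSFs only. Reads were aligned to MonDom5 and RefSeq transcripts with StrandNGS, filtered by quality and mapping, and counted per gene. The authors deposited these counts, of which 85.5% of the values above 0 were not whole (tolerance 1e-04), and they were therefore rounded as estimated counts. A second table that the authors deposited holds log2 values normalized with DESeq, and 2 to the power of these gave the NRC, with 0 kept at 0. Rows were matched by symbol, or by gene number through a RefSeq table of mMonDom1.pri, another assembly used for names only.

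Counts were fitted with edgeR 4.0.16 (glmQLFit, glmQLFTest, TMM scaling, R 4.3.3) over 13072 genes. TMM factors were 0.78 and 0.80 in neoSFs and 1.10 to 1.17 in monoiPSCs. The SE is the size of the log2 fold change divided by the square root of F. DESeq2 1.42.0 and limma 3.58.1 served as alternatives. Scripts were tested on simulated data. A count of 3 equals an NRC of 5.85 and 4.75 in neoSFs and 1.55 to 1.88 in monoiPSCs. Intervals cover counting error only and not the spread between libraries. They take counts as independent, which PCR copies are not, so they can be too narrow.

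The members and lists were chosen with earlier results of these data known. Every member is accounted for. Values in every library are given for the 2 largest changes of each group, for each gene not called and for each call that depends on a setting, and for a few others. Of each wider list the largest and second largest called rise and fall are named. Strain pairs the libraries by derivation, since each line was made from neoSFs of its strain. The deviations of same-strain libraries correlated at r = 0.04 over 13072 genes. Promoter motifs and sequences were not analysed here, and some genes of the wider lists and 1 plasmid are not reported here.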

Additional observations from a re-analysis of the deposited data

Results flagged for a closer look

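Among the 4 monoiPSC libraries, the highest value of 2 genes stood apart from the rest by a test on the gap to the nearest library, relative to the whole range. XRCC3 had an NRC of 204 in LSD1 at passage 15, against 174 to 177 in the other 3 libraries. FANCE had an NRC of 214 in the same library, against 92.7 to 111 in the others. With 37 genes tested this way, chance alone gives about 1 such result in 20 groups. The 2 found are close to that rate, and neither is read as a result.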

How the results depend on the processing

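The number of the 37 genes called higher was 21 with RLE scaling, with no expression filter, with a count minimum of 20, with DESeq2, with limma on the deposited log2 values and with strain as a replicate block. It ran from 19 to 22 when 1 library at a time was left out and was 26 without the fold threshold, and the number called lower was 0 throughout. Of 444 alternative log2 fold changes, 433 kept their direction and their side of the threshold. The replicate block of strain changed no call among the 37 genes. Calls moved by leaving out 1 library were those of FANCB, FANCM, TOPBP1 and TP53BP1. Leaving out 1 library at a time turned the sign of 4 genes, none of them called: the log2 fold change ran from -0.0043 to 0.23 for BRCA2, from -0.16 to 0.057 for PALB2, from -0.50 to 0.19 for FANCE and from -0.23 to 0.020 for PMS2. XRCC3, not called in any setting with the fold threshold, had an adjusted p of 0.0543 with no expression filter and of 0.0525 to 0.153 when any 1 library was left out. Between lines, the count was 1 with DESeq2 and 7 at an unadjusted p under 0.05. That unadjusted count was 2 for passages and 2 for the strain interaction. The shift of Fanconi anaemia minus end joining genes was 0.69 on log2(CPM + 1) in place of 0.93, and 0.43 without FANCL, an alternative chosen after seeing the data. In each case the cause was not tested. Passage and line comparisons could not be repeated without a library, as no residual degrees of freedom remain. Depth limits FANCL and RAD51C, which have 5 and 27 counts in neoSFs. The promoter motif count was not run.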
